A study of Mus musculus with 30 samples.

Results

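The genes described here are the subunits of respiratory chain complexes I to IV that are encoded in the nucleus. They were taken by symbol, as all genes whose official symbol starts with Nduf, Uqcr or Cox4 to Cox8, together with Sdha, Sdhb, Sdhc and Sdhd. The annotation held 89 such symbols, of which 13 had no matched probe (10 of these are not labelled protein coding). The remaining 76 genes, of 36717 genes and transcripts on the arrays, were 38 genes of complex I, 8 assembly factors of complex I (Ndufaf), 4 of complex II, 8 of complex III and 18 of complex IV. Ndufa4 and Ndufa4l2 were kept under complex I by their symbols, although the Ndufa4 protein is nowadays counted with complex IV. Measured levels played no part in this choice.

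The respiratory chain carries electrons from NADH (through complex I) and succinate (through complex II) to complex III and, by way of cytochrome c, to complex IV, which passes them to oxygen. Complexes I, III and IV pump protons across the inner mitochondrial membrane, and ATP synthase uses that gradient to make ATP, on which neurons depend heavily. Several complex IV subunits exist as paralogous isoforms that differ between tissues, among them the heart and muscle isoforms Cox6a2, Cox7a1 and Cox8b and the testis isoforms Cox6b2, Cox7b2 and Cox8c.

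RNA from the hippocampus and from the brain without hippocampus of 15 PBS-perfused mice was hybridized to 30 Agilent 1-colour arrays, 1 for each mouse and tissue. Equal numbers in the labels of both tissues were taken as the same mouse. The 3xTgAD mice, a model of AD, carry human mutant APP and tau transgenes under the neuronal Thy1 promoter, and JHT mice lack the J segments of the immunoglobulin heavy chain and so have no mature B cells. The mice labelled JHT_3xTgAD combine both and are called BKO here. There were 2 female and 3 male 3xTgAD mice, 2 female and 3 male BKO mice, 3 WT females and 2 JHT females, all labelled C57BL/6j and 15–20 months old. WT and JHT groups thus held no males. Each mouse is 1 biological sample, and p-values measure the spread between these few mice.

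Levels are log2 processed signals, quantile-normalized over the 30 arrays, from the probe with the highest mean for each gene, and a level of one gene cannot be set against that of another. Of the 76 genes, 75 were well above background on all 30 arrays. The exception, Cox8c, was so on 1 array, hippocampus of WT female 11, at 5.76 against 2.36–3.41 on the other 29. The tissue labels were borne out by genes typical of hippocampal fields, of which 6 of 8 were higher in the hippocampus (25.1% of all genes; median 3.19 log2), and by genes typical of other brain regions, of which 9 of 10 were lower (26% of all genes; median -2.53). Some arrays stood apart for respiratory chain genes. The hippocampal array of BKO male 0, which also had 432 spots marked as outliers, lay more than 0.5 log2 beyond all other hippocampal arrays for 9 genes. Among these, it was low for Sdhb (14.01, next 15.41), Ndufa8 and Ndufaf7, and high for Ndufv2 (16.25, next 15.11), Ndufa7, Ndufb2, Ndufa1 and Ndufb6. Tissue was nearly confounded with the slide, since 1 of the 4 slides held arrays of both tissues. Genotype was partly confounded with it as well: in the hippocampus all 3xTgAD arrays were on slide 1 and all WT and JHT arrays on slide 2, and in the brain on slides 3 and 4, so that no slide held both 3xTgAD and WT arrays of a tissue. A fit with the slide as a block therefore ties these groups together through BKO males only, which in the hippocampus are male 0 on slide 1 and males 8 and 9 on slide 2.

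Promoters of 5 genes are shown because these genes carry the results described next: Sdhd as a complex II gene lower in the hippocampus under all 4 scalings compared that holds both motifs known from respiratory genes, Cox7a1 as the gene with the largest tissue difference, and Cox7b2, its ubiquitous paralogue Cox7b, and Cox7c for the genotype differences. Each sequence is the 250 bases before the annotated start, read in the direction of transcription, from RefSeq on build GRCm38.p6. The positions are chr9:50603850-50604099 (minus strand) for Sdhd, chr7:30183921-30184170 (plus) for Cox7a1, chr5:71548206-71548455 (minus) for Cox7b2, chrX:106015450-106015699 (plus) for Cox7b and chr13:86046796-86047045 (minus) for Cox7c. Capitals mark matches, on either strand, to the motifs named after the sequences.
Sdhd: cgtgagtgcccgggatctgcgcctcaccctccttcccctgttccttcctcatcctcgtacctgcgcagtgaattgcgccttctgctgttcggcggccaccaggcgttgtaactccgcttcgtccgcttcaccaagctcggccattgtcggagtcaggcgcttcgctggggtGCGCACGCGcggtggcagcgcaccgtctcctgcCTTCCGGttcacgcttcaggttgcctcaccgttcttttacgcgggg
Cox7a1: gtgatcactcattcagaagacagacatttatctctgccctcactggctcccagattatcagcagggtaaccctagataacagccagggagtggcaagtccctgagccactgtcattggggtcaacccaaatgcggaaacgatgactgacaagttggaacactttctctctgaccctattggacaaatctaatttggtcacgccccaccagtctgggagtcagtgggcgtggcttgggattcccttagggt
Cox7b2: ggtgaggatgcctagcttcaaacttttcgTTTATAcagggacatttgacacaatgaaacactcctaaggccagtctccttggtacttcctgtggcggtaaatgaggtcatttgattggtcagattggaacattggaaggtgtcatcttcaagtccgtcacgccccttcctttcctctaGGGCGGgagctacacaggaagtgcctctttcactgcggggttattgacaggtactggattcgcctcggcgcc
Cox7b: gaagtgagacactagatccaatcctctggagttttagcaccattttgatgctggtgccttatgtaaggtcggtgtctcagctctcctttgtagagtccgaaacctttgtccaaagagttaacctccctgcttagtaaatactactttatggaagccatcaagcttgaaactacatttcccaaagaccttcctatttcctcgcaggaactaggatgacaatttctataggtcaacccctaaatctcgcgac
Cox7c: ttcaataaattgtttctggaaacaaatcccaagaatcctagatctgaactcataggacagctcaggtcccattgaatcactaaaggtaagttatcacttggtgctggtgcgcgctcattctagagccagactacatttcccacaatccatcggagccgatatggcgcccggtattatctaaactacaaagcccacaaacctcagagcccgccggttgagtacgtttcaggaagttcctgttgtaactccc

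The Sdhd promoter held the core of the nuclear respiratory factor NRF1 motif (GCGCANGCG) 79 bases before the start and an ETS core (CCGGAAG, the motif of GABP, also called NRF2) at 46 bases. The Cox7b2 promoter held a GC box (GGGCGG) at 72 bases and the letters of a TATA box (TATAAA) at 221 bases. The other 3 promoters held none of the 6 motifs searched. A promoter was found for 61 of the 76 genes. The NRF1 core stood in 10 of these 61 promoters (16.4%), against 5.86% of all 27025 promoters, and the ETS core also in 10 (16.4%, against 7.83%). Sdhd and Cox6a1 held both. A GC box stood in 42.6% (35.4% of all), a TATA box in 8.2% (14.3%), and the YY1 core (AAGATGG) and the ERR core (TCAAGGTCA) in none (5.18% and 0.422%). Cores of 2 different motifs were counted separately where they overlapped. These are matches of letters, not sites shown to be bound.

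Most respiratory chain genes were lower in the hippocampus than in the rest of the brain when arrays were quantile-normalized, by a small amount: 67 of 76 differences were below 0 and the median was -0.20 log2, a direction that flips to 0.012 score units in the authors' deposited scores. By limma, 50 of the 76 (65.8%) were called lower and 1 higher (adjusted p under 0.05), against 26% of all genes called lower and 51.1% called in either direction. Among genes well above background on all 30 arrays, as 75 of the 76 were, 36.4% were called lower. In bulk tissue, fewer cells of a type and less RNA per cell cannot be told apart. With the mouse as a block, which pairs both tissues of a mouse, 48 were called (51% of all genes), all lower and all among the 50. With the slide as a block, 14 were called (9 lower, 5 higher), a share of 18.4% that is close to the 18% of all genes called in that fit, and the median was -0.11. Of the 50 genes called lower, 6 were again called lower there, namely Ndufa6, Ndufa10, Ndufb6, Ndufb8, Ndufs4 and Uqcrh, and the other lower calls given below were lost in that fit, where Ndufaf7 was called higher (0.44, limma adjusted p 0.0461). On the shared slide, the hippocampus of BKO males 8 and 9 against the brain of BKO male 0 gave a median of -0.06, with 48 of 76 lower. Ndufb6 differed there by -0.02 and Ndufaf7 by -0.20. For both genes the hippocampal array of BKO male 0, which helps set the slide effect, stood apart (15.09, next 14.55, and 11.21, next 12.15). Without that array and the block, they differed by -0.27 and -0.25 (limma adjusted p 3.92e-06 and 2.49e-05).

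How many genes counted as lower depended on how arrays were scaled. Scaled to the 75th percentile, the median over all genes itself moved to 0.30, and the respiratory chain genes lay at -0.04, with 28 called lower and 12 higher (19.9% and 48.5% of all genes) and 71 of 76 below the median of all genes. Of the 50 differences called lower under quantile normalization, 30 were smaller by more than 1.5 times or above 0 with this scaling. Genes well above background on all 30 arrays, as 75 of the 76 were, had a median of 0.065 there. Normexp background correction before quantile normalization gave 51 lower and 1 higher (24.9% and 24.2% of all genes). Quantile normalization within each tissue moved all genes to -0.77 and the respiratory chain genes to -1.11, with 75 called lower (78.8% of all genes), while the genes well above background on all arrays moved to -0.999. In the deposited scores 20 were called lower and 23 higher, against 25% and 25.8% of all genes. Called lower under quantile normalization, 75th percentile scaling, normexp and the deposited scores alike were 17 of the 76 (22.4%), against 18.6% of all genes: 7 of complex I (Ndufa4, Ndufa6, Ndufa10, Ndufa11, Ndufab1, Ndufs4 and Ndufs8), the assembly factors Ndufaf2, Ndufaf4 and Ndufaf6, Sdha, Sdhc and Sdhd of complex II, none of complex III, and Cox6a2, Cox6b2, Cox7a1 and Cox7b2 of complex IV.

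**Figure D1:**
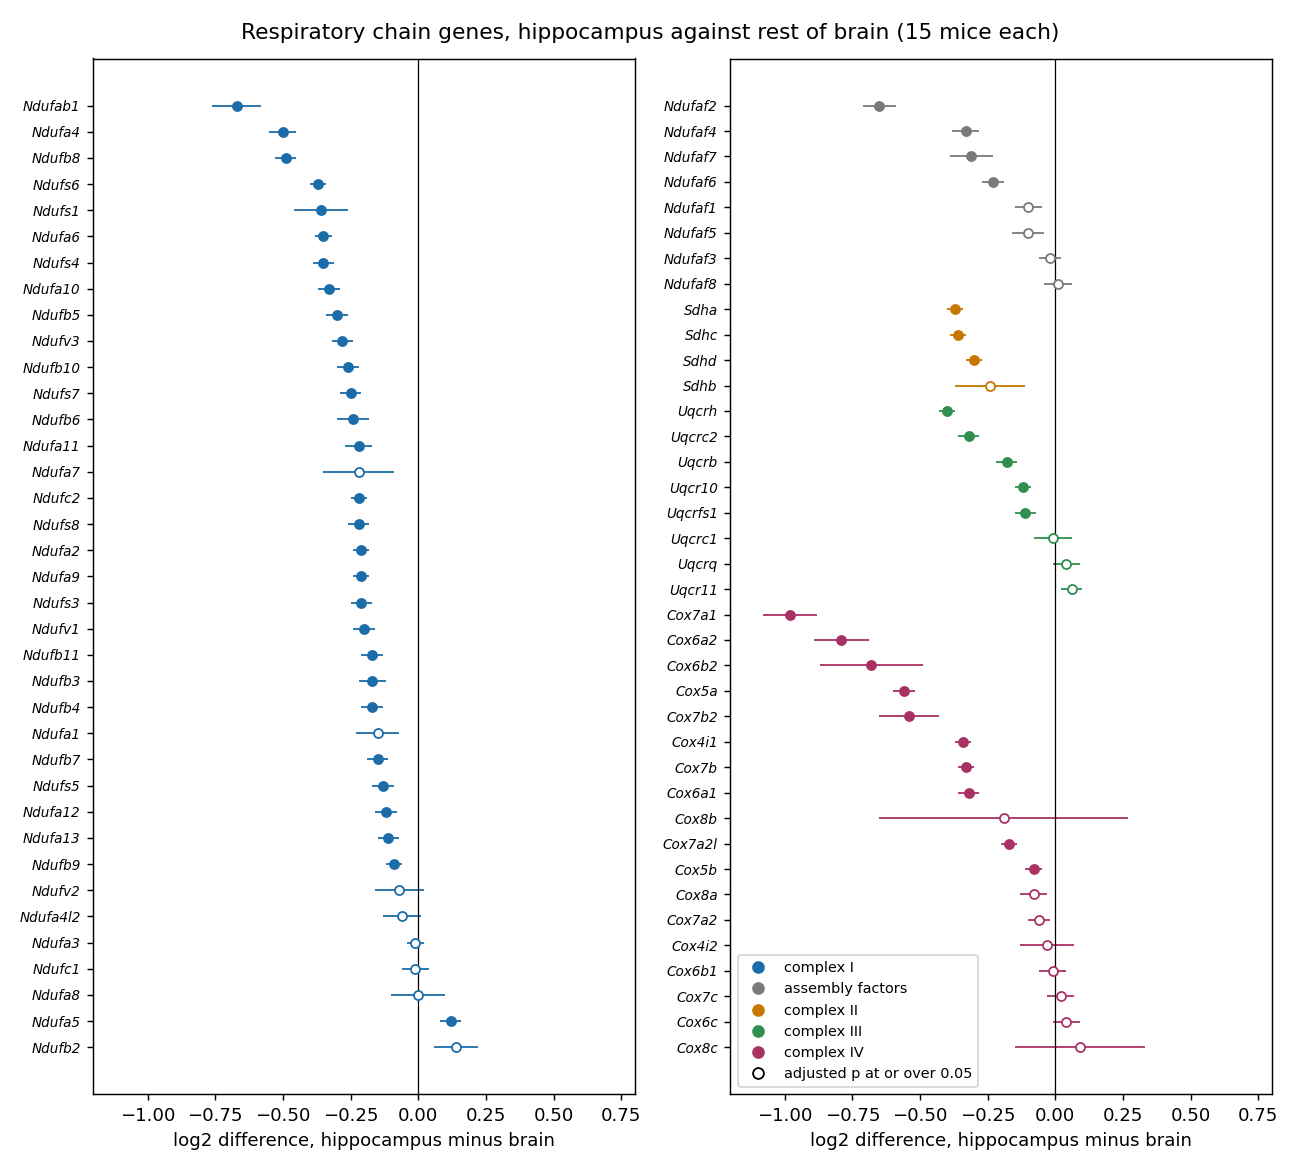
Log2 difference between hippocampus and brain without hippocampus for 75 of the 76 genes by complex, from limma over all 30 arrays after quantile normalization, with the standard error as bars and filled points for genes past adjusted p 0.05. Most points lie left of 0, from -0.98 for Cox7a1 to 0.14 for Ndufb2 (0.08 without the hippocampal array of BKO male 0), a direction that flips for the median in the deposited scores (0.012 score units).

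Of the 38 complex I genes, 28 were called lower (median -0.21). Ndufab1, the mitochondrial acyl carrier protein that is also a complex I subunit, measured 7.30, 7.71 and 8.17 (lowest, median and highest) in the hippocampus and 7.91, 8.45 and 8.72 in the brain, which overlapped. Its difference was -0.67 ± 0.09 (limma standard error, adjusted p 1.43e-06) and had the same sign under all 4 scalings, but was -0.14 with the slide as a block (adjusted p 0.832, limma) and -0.07 on the shared slide. Ndufa4 measured 15.13, 15.27 and 15.64 against 15.55, 15.77 and 16.06 (-0.50 ± 0.05, adjusted p 2.24e-08), while its hypoxia-linked paralogue Ndufa4l2 differed by -0.06 ± 0.07. The hippocampal arrays of Ndufa4 lay below the brain arrays apart from a narrow overlap. Of the accessory subunits, which surround the core and have no redox groups of their own, Ndufa6 measured 14.07, 14.18 and 14.33 in the hippocampus and 14.36, 14.55 and 14.62 in the brain, and Ndufa10 measured 12.94, 13.23 and 13.42 against 13.43, 13.54 and 13.67. Both were separated by a gap smaller than the range within either tissue (-0.35 ± 0.03 and -0.33 ± 0.04), and both stayed below 0 with the slide as a block (-0.53 and -0.50). Ndufs4, whose loss in mice gives a model of Leigh syndrome, measured 13.68, 13.74 and 14.07 against 14.03, 14.10 and 14.26 (-0.35 ± 0.04).

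Among the core subunits of complex I, which include those that bind its redox groups, Ndufs1 (-0.36), Ndufs3 (-0.21), Ndufs7 (-0.25), Ndufs8 (-0.22) and Ndufv1 (-0.20) were lower in the hippocampus, of which Ndufs3, Ndufs7 and Ndufv1 lay above 0 in the deposited scores. Ndufs8, an iron-sulfur subunit, measured 12.78, 12.92 and 13.12 in the hippocampus and 13.06, 13.15 and 13.32 in the brain, and was lower in all 15 mice. The difference for the NADH-side subunit Ndufv2 was -0.07 ± 0.09. It was among the genes in which BKO male 0 stood apart, and without that array the difference was -0.14 (adjusted p 0.000261, limma). Ndufa8, an accessory subunit, differed by 0.00 ± 0.10, and by 0.07 ± 0.05 without that array. The single gene called higher was Ndufa5, an accessory subunit of the peripheral arm, at 15.68, 16.02 and 16.22 against 15.70, 15.88 and 16.07, with groups that overlapped over most of their range. Its difference of 0.12 ± 0.04 (adjusted p 0.0262 by limma) was not past the threshold with the mouse (adjusted p 0.0765) or the slide as a block (0.303) or without any 1 of mice 2, 3, 5, 6, 8, 11, 13 and 14 (0.0502 to 0.125), and flipped to -0.72 with normalization within each tissue.

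The assembly factors build complex I and are not part of the finished enzyme, and 4 of 8 were called lower. Ndufaf2 measured 11.51, 11.76 and 12.10 in the hippocampus and 12.11, 12.39 and 12.77 in the brain. No hippocampal array reached the lowest brain array, and the difference was -0.65 ± 0.06 (adjusted p 1.58e-08, limma). Ndufaf4 (-0.33), Ndufaf6 (-0.23) and Ndufaf7 (-0.31) were lower as well, of which Ndufaf6 stood at 0.05 with the slide as a block and Ndufaf7 at 0.44, past the threshold in the opposite direction (adjusted p 0.0461, limma). The hippocampal array of BKO male 0, which helps set the slide effect, stood apart for Ndufaf7 (11.21, next 12.15). Without that array and the block Ndufaf7 differed by -0.25 (limma adjusted p 2.49e-05), and on the shared slide by -0.20. It was lower in all 15 mice. Ndufaf8 had the smallest difference (0.01 ± 0.05).

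Complex II oxidizes succinate and is the enzyme of the chain that also belongs to the tricarboxylic acid cycle. All 4 genes lay below 0 and 3 were called lower (median -0.33). The flavoprotein Sdha measured 14.29, 14.49 and 14.61 in the hippocampus and 14.71, 14.84 and 15.00 in the brain, with no overlap (-0.37 ± 0.03, limma adjusted p 9.13e-09). The membrane anchors Sdhc (-0.36 ± 0.03) and Sdhd (-0.30 ± 0.03) were lower in 14 and 15 of the 15 mice. None of the 3 was called with the slide as a block: Sdha stood at -0.24 (limma adjusted p 0.164), Sdhc at -0.32 (0.0661) and Sdhd at -0.08 (0.721), and on the shared slide they differed by -0.22, -0.06 and 0.00. The iron-sulfur subunit Sdhb measured 14.01, 15.67 and 15.92 against 15.55, 15.82 and 15.97 and was not past the threshold (-0.24 ± 0.13, adjusted p 0.143). Without the array of BKO male 0, which was its lowest value, the limma difference was -0.14 ± 0.04 (adjusted p 0.0118).

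Complex III had the smallest median of the complexes (-0.12), with 5 of 8 genes called lower under quantile normalization and none under all 4 scalings. Uqcrh, the hinge protein at cytochrome c1, measured 16.01, 16.16 and 16.30 in the hippocampus and 16.46, 16.55 and 16.68 in the brain, with no overlap. Its difference was -0.40 ± 0.03 (adjusted p 2.59e-09, limma) and flipped to 0.01 in the deposited scores. The core protein Uqcrc2 was lower (-0.32 ± 0.04, but 0.03 with the slide as a block), as was the Rieske iron-sulfur protein Uqcrfs1 (-0.11 ± 0.04, at 0.01 in the deposited scores), whereas the other core protein, Uqcrc1, differed by -0.01 ± 0.07. For the small subunit Uqcr10 the 3 probes did not move together, and the call of -0.12 turned to 0.01 when they were averaged.

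In complex IV 10 of 18 genes were called lower, and isoforms with restricted expression held the largest differences. The muscle isoform Cox7a1 measured 9.92, 10.25 and 11.01 in the hippocampus and 11.03, 11.43 and 11.67 in the brain, with no overlap. It was 1.97-fold lower (-0.98 ± 0.10 log2, adjusted p 4.48e-08 by limma), in 15 of 15 mice and under each of the 4 scalings (with the slide as a block -0.72, adjusted p 0.238), while its ubiquitous paralogues Cox7a2 (-0.06 ± 0.04) and Cox7a2l (-0.17 ± 0.03, above 0 under 2 of the scalings) differed less. The muscle isoform Cox6a2, in brain known from parvalbumin interneurons, measured 9.22, 10.18 and 11.85 against 10.62, 10.92 and 11.87, which overlapped, and differed by -0.79 ± 0.10. That call was lost with the slide as a block (-0.27, limma adjusted p 0.685). The mean of Cox6a2 was 11.47 against 11.76 in WT females and 11.32 against 11.81 in JHT females. In the 10 mice with the AD transgenes it was 9.91 against 10.9. Its ubiquitous paralogue Cox6a1 differed by -0.32 ± 0.04, with a brain median and maximum that were both 18.43, the top of the normalized scale, and its sign flipped to 0.47 with 75th percentile scaling. Interneuron markers moved the same way as Cox6a2 between the tissues: 6 of 8 were lower and 1 higher (median -0.87, with 26% and 25.1% of all genes called lower and higher), with a summed processed signal of 93800–139000 on hippocampal and 175000–209000 on brain arrays. Their part in the result was not tested.

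The testis isoform Cox6b2 measured 7.85, 8.45 and 10.29 in the hippocampus and 9.11, 9.46 and 9.75 in the brain (-0.68 ± 0.19, adjusted p 0.0048, limma), against -0.01 ± 0.05 for Cox6b1. The high end of its hippocampal range came from arrays described below. The Cox6b2 call was lost with the slide as a block (-1.31, limma adjusted p 0.266). Cox7b2 differed by -0.54 ± 0.11 (-0.31 with normexp and -0.34 with 75th percentile scaling) and Cox7b by -0.33 ± 0.03. Of the paralogues of subunit 4, the ubiquitous Cox4i1 was lower (-0.34 ± 0.03, with no overlap, but 0.04 with 75th percentile scaling) and Cox4i2, known from lung and from low oxygen, differed by -0.03 ± 0.10. Cox5a, which binds a thyroid hormone metabolite, measured 16.24, 16.36 and 16.53 against 16.63, 16.96 and 17.09 with no overlap (-0.56 ± 0.04, limma adjusted p 6.1e-10). Its difference was -0.22 with 75th percentile scaling, and the call was lost in the deposited scores (-0.01, limma adjusted p 0.747) and with the slide as a block (-0.22, 0.319). Cox5b, the zinc-binding subunit, differed by -0.08 ± 0.03. Cox8a, the ubiquitous isoform, differed by -0.08 ± 0.05.

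For 12 of the 76 genes every hippocampal array lay below every brain array, as for 4.68% of all genes with values on enough arrays to compare. These were Cox4i1, Cox5a, Cox7a1, Cox7b, Ndufa2, Ndufa6, Ndufa10, Ndufaf2, Ndufs6, Sdha, Uqcrc2 and Uqcrh. Within each genotype and sex group the median tissue difference was below 0, from -0.15 in BKO males to -0.24 in BKO females. Without the hippocampal array of BKO male 0, 58 genes were called (55 lower), against 53.7% of all genes called in either direction. Genes of connected pathways were counted under quantile normalization, where 26% of all genes and 36.4% of those well above background on all arrays were called lower: 14 of 18 ATP synthase genes were called lower and none higher (median -0.17), 13 lower and 2 higher of 18 genes of the tricarboxylic acid cycle and pyruvate dehydrogenase (-0.18), and 10 lower and 1 higher of 15 regulators of mitochondrial biogenesis (-0.23), among them Ppargc1a at -0.23. For 80 cytosolic ribosomal protein genes, which are also short and abundant, 38 were lower and 8 higher (median -0.09), a share that is also above that of all genes.

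**Figure D2:**
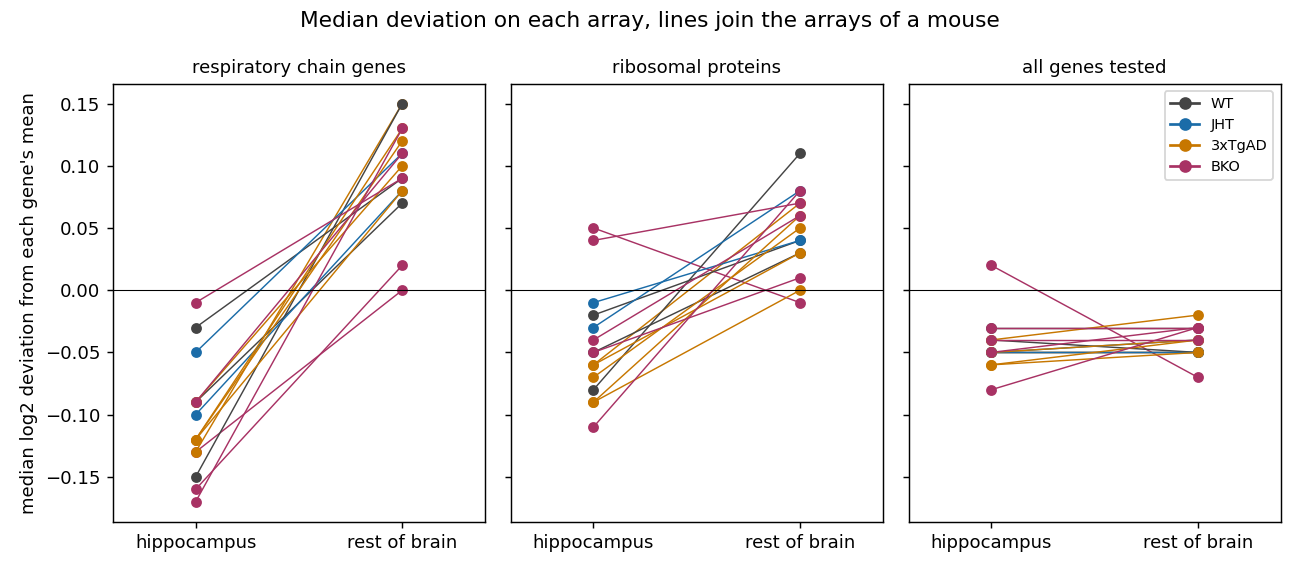
Median deviation of the respiratory chain genes from each gene's mean over the 30 arrays (log2 after quantile normalization), beside the same for ribosomal protein genes and for all genes tested, with 1 point for each array, colours for genotypes and lines joining the arrays of a mouse. For the respiratory chain genes, hippocampal arrays lie between -0.17 and -0.01 and brain arrays between 0 and 0.15, a difference that flips in sign (0.012 score units) for the deposited scores.

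In 3xTgAD against WT females, 1 of 76 was called in the hippocampus (0.746% of all genes were called) and 0 in the brain (1.15%). In JHT against WT females, neither of which carries the AD transgenes, 0 were called by limma in either tissue (0.0926% of all genes in the hippocampus and 0.161% in the brain). At an unadjusted p under 0.05 the limma counts of these comparisons with 0 calls were 3 (3xTgAD, brain), 1 (JHT, hippocampus) and 2 (JHT, brain), or 3.95%, 1.32% and 2.63% of the 76, against 11%, 7.83% and 6.31% of all genes, and the methods' t-test gave 5, 2 and 0 before and 0 after adjustment. These shares of all genes are limma's, and none is given for the t-test, so its counts cannot be read as many or few. Between BKO and 3xTgAD mice 1 gene was called in females in the hippocampus (0.37% of all genes) and 1 in the brain (1.12%), and likewise 1 in males in each tissue (0.847% and 0.961%). Between BKO and JHT females, which differ in the AD transgenes, 1 was called in each tissue (0.229% and 0.667%). With the slide as a block the hippocampal counts were larger, for these genes as for all genes: 12 for 3xTgAD against WT (8.88% of all genes called), 17 for BKO against 3xTgAD males (15.4%) and 10 for BKO against JHT (7.96%). The slide effect in these fits is set by the array of BKO male 0, which stood apart, against BKO males 8 and 9. In a single fit of all 30 arrays, 7 were called for BKO against 3xTgAD males in the hippocampus (5.16% of all genes). The median difference over the 76 genes lay between -0.11 and 0.05 in these comparisons without the slide. Outside complex IV, the differences of single genes between BKO and 3xTgAD females lay between -0.37 and 0.55 in the hippocampus and between -0.35 and 0.31 in the brain, and none was called.

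The muscle isoform Cox6a2 was lower in every mouse that carried the AD transgenes. In the hippocampus it measured 11.43, 11.85 and 11.13 in WT and 11.39 and 11.25 in JHT females. It measured 9.67 and 10.02 in 3xTgAD females and 9.51, 9.22 and 9.60 in 3xTgAD males, and 9.95 and 9.85 in BKO females and 10.18, 10.91 and 10.21 in BKO males. The 10 mice with transgenes thus lay below the 5 without, with no overlap. In the brain, values were 11.82, 11.59 and 11.87 in WT and 11.85 and 11.77 in JHT females, against 10.62–10.92 in the 5 3xTgAD mice and 10.77–11.48 in the 5 BKO mice, again without overlap. No other of the 76 genes separated the mice in this way in the hippocampus (0.642% of all genes did, in either direction), and Cox6a2 and Cox6c did in the brain (0.891%).

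Cox6a2 was 3.09-fold lower in 3xTgAD than in WT females in the hippocampus (-1.63 ± 0.26, limma adjusted p 0.0196), and its difference in the brain was -0.99 ± 0.21 (adjusted p 0.0545, limma). This call was lost without 3xTgAD female 1 (adjusted p 0.105), without WT female 10 (0.0594) or 11 (0.054), with normexp (0.107) and with the slide as a block (-1.25, 0.117), all by limma. A comparison of all 10 mice with and 5 without the transgenes was added after the data were seen. It mixes in sex, since the 5 were all female and the 10 were of both sexes. It gave -1.50 ± 0.15 in the hippocampus (limma adjusted p 0.00115) and -0.88 ± 0.12 in the brain (0.00478). With the slide as a block these were -1.19 (0.0483) and -1.39 (0.0219). On the slides that held both kinds of mice, the hippocampus of BKO males 8 and 9 (10.91 and 10.21) lay below that of WT and JHT females (11.13–11.85), and the brain of BKO male 9 (10.84) below theirs (11.59–11.87). The difference between the hippocampal and brain changes of 3xTgAD females was not past the threshold for Cox6a2 (-0.64, limma adjusted p 0.816, and 0.38, 0.853, with the slide as a block). In that contrast limma called 0 of 76 genes (0.0926% of all genes), with 0 of 76 and 6.75% of all genes at an unadjusted p under 0.05, and 8 of 76 with the slide as a block (5.68% of all genes). JHT and WT females differed by -0.15 ± 0.26 and 0.05 ± 0.21 in Cox6a2.

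Of the 8 interneuron markers, 0 were called in any comparison of genotypes by limma, and between mice with and without the transgenes 1 in the hippocampus and 2 in the brain were at an unadjusted p under 0.05, as were 9.39% and 14.3% of all genes. Their summed hippocampal signal was 93800–139000 in mice with and 101000–125000 in mice without the transgenes, and their median difference was 0.03. Over the 76 genes the added comparison called 2 in the hippocampus (0.926% of all genes) and 3 in the brain (2.38%), and 10 in the hippocampus with the slide as a block (7.66%). Without the block, these were Cox6a2 and Cox7b2 in both tissues and, in the brain, Cox6c, a small subunit of complex IV. Cox7b2 was higher with the transgenes, but 3xTgAD mice overlapped mice without them (hippocampus 5.90–6.86 against 5.33–6.11, brain 6.23–7.07 against 5.83–6.87). BKO mice lay above both (7.41–7.82 and 7.93–8.59). Cox6c measured 15.94, 16.08 and 16.25 (lowest, median and highest) in brains with transgenes and 16.26, 16.31 and 16.48 in those without, which did not overlap but lay within 0.01 of each other. Its difference of -0.25 ± 0.05 (adjusted p 0.0406, limma) was -0.11 with the slide as a block (0.848), and was lost with 75th percentile scaling (0.0838), with the deposited scores (0.432) and when 1 of several mice was left out (up to 0.114).

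**Figure D3:**
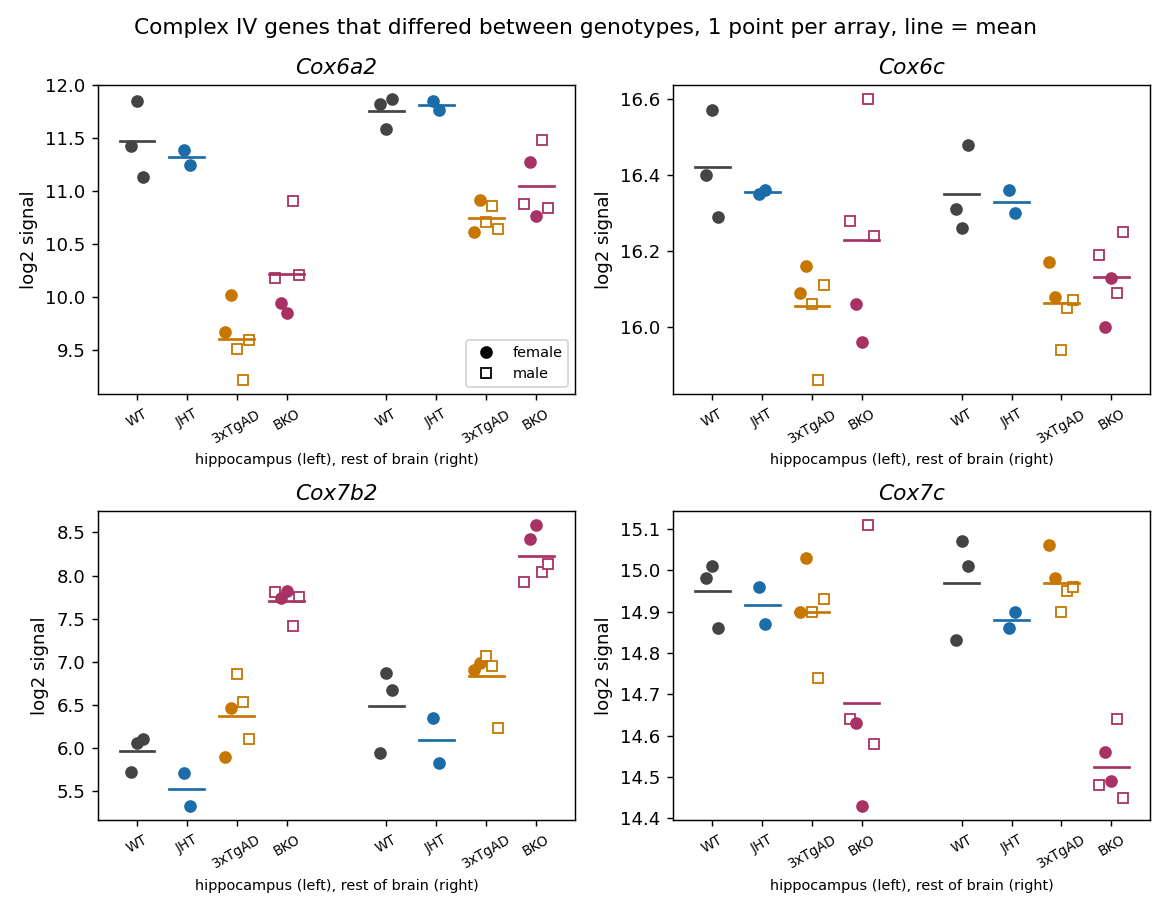
Log2 signal of Cox6a2, Cox6c, Cox7b2 and Cox7c after quantile normalization (vertical axis) on each array by tissue and genotype, with filled points for females, open squares for males and lines at the mean of a genotype. Cox6a2 lies lower in all 10 mice with the AD transgenes in both tissues and Cox6c in the brain, Cox7b2 lies higher in all 5 BKO mice, and Cox7c lower in the brain of the 5 BKO mice.

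Cox7b2, the testis isoform of subunit 7b (promoter above), was the gene of the chain that separated BKO mice from all others. In the hippocampus it measured 7.82 and 7.74 in BKO females and 7.81, 7.41 and 7.75 in BKO males. The 3xTgAD females measured 5.90 and 6.47 and the males 6.86, 6.54 and 6.10, WT females 5.72, 6.06 and 6.11 and JHT females 5.71 and 5.33. All 5 BKO mice lay above all 10 others. In the brain, BKO mice measured 8.42 and 8.59 (females) and 7.93, 8.04 and 8.14 (males), against 6.23–7.07 in 3xTgAD mice, 5.94–6.87 in WT and 5.83–6.35 in JHT females, again above every other mouse. Of the 76 genes, Cox7b2 alone did so in the hippocampus, where 0.276% of all genes separated BKO mice in either direction. In the brain Cox7b2 lay above and Cox7c and Ndufb2 below all other mice (0.436% of all genes).

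In females Cox7b2 was 3.01-fold higher in BKO than in 3xTgAD hippocampus (1.59 ± 0.27 log2, limma adjusted p 0.0427), and in males 2.23-fold (1.16 ± 0.22, limma adjusted p 0.047). The brain differences of 1.55 ± 0.32 and 1.29 ± 0.26 were just beyond the threshold (limma adjusted p 0.0538 and 0.056). Against JHT females, BKO females were higher by 2.26 ± 0.27 in the hippocampus (limma adjusted p 0.0057) and 2.41 ± 0.32 in the brain (0.00755), and JHT differed from WT by -0.45 ± 0.25 and -0.40 ± 0.30. The ubiquitous Cox7b was called in none of these comparisons. With normexp the hippocampal differences were 0.99 in females, where the call was lost (limma adjusted p 0.0537), 0.80 in males and 1.28 against JHT females (0.02). The hippocampal call was also lost with 75th percentile scaling (limma adjusted p 0.0858 in females, 0.0791 in males), in the deposited scores (0.0671 and 0.0521), and without 3xTgAD female 1 (0.148), BKO female 6 (0.0522) or BKO female 7 (0.135) in females. In males it was lost without 3xTgAD male 4 (0.117) or 5 (0.12) or BKO male 0 (0.111) or 8 (0.0575). The brain call against JHT females was not past the threshold with the slide as a block (2.51, 0.109). On the first slide alone, BKO male 0 lay 1.31 above the 3xTgAD males.

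Cox7c, a small complex IV subunit, fell in the brain of BKO mice. It measured 14.56 and 14.49 in BKO females and 14.48, 14.64 and 14.45 in BKO males, against 15.06 and 14.98 in 3xTgAD females and 14.90, 14.95 and 14.96 in 3xTgAD males. WT females measured 14.83, 15.07 and 15.01 and JHT females 14.86 and 14.90, so that no BKO brain reached any other. The differences from 3xTgAD were -0.49 ± 0.10 in females (adjusted p 0.0389, limma) and -0.41 ± 0.08 in males (0.0361), and in the hippocampus -0.44 (0.237) and -0.08 (0.798). These values came from 1 of 3 probes. The second bright probe differed by -0.07 in females and -0.16 in males in the brain, the dim probe by 0.04 and -0.09, and the mean of the probes by -0.18 (limma adjusted p 0.476) and -0.22 (0.309). With 75th percentile scaling the adjusted p was 0.108 and 0.0894, and leaving out any 1 of the 4 females ended the call in females (0.0747 to 0.152, limma). In males the call ended without any 1 of the 6 mice other than BKO male 8 (limma adjusted p 0.0734 to 0.135) and with the slide as a block (-0.30, 0.218).

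The change from 3xTgAD to BKO was compared between females and males for each gene. By limma 0 of 76 were called in the hippocampus (0.0245% of all genes) and 0 in the brain (0.101%). At an unadjusted p under 0.05 there were 13 (17.1%, against 21.2% of all genes) and 2 (2.63%, against 8.75%). With the slide as a block, 12 were called in the hippocampus (13.4% of all genes called), and 4 in a single fit of all 30 arrays (8.24%). Between the hippocampus and brain of females, 0 were called by limma (0.123% of all genes), and 1 (1.32%, against 9.9% of all genes) was at an unadjusted p under 0.05. The lowest adjusted p in the hippocampus was that of Uqcrc1. It measured 13.95 and 14.18 in BKO and 13.59 and 13.44 in 3xTgAD females, and 13.30, 13.35 and 13.74 in BKO and 13.93, 14.12 and 13.98 in 3xTgAD males. Every BKO female thus lay above and every BKO male below the 3xTgAD mice of the same sex, with a difference between the changes of 1.10 ± 0.21 (limma adjusted p 0.0732). BKO male 0, whose hippocampal array stood apart for 9 other genes, held the lowest value. Ndufa4l2 came near the threshold in males: BKO hippocampus measured 10.04, 9.58 and 9.64 and 3xTgAD hippocampus 9.20, 8.89 and 9.03, without overlap (0.71 ± 0.15, limma adjusted p 0.0605), and the array of BKO male 0 held the highest value.

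Ndufs1, the largest subunit of complex I, was low in 1 female and 1 male BKO mouse in both tissues. BKO female 7 and BKO male 9 measured 13.89 and 13.92 in the hippocampus, where the other 13 mice measured 14.61–14.82 with a median of 14.73. In the brain they measured 14.36 and 14.31, against 14.97–15.14 with a median of 15.06. The gap to the median was 0.83 in the hippocampus and 0.73 in the brain, and the other BKO mice lay with the remaining groups. The pattern was seen in the data and has no test. The gene is read by 1 probe.

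Cox8b, the muscle isoform of subunit 8, was high on 4 hippocampal arrays, from 3xTgAD, BKO and JHT mice. It measured 12.16 in 3xTgAD male 4, 12.25 in BKO female 7, 12.59 in JHT female 13 and 11.18 in JHT female 14, against 7.08–9.51 on the other hippocampal arrays and 8.68–10.37 in the brain. The same 4 arrays were bright in choroid plexus genes: the mean level of 8 of 8 matched markers was 13.37, 13.29, 13.39 and 12.44, against 6.66–9.21 on the other hippocampal and 10.51–11.58 on brain arrays. Their summed processed signal was 236000–378000 on these 4 arrays. Both JHT females and no WT female were among the 4, and Cox8b differed by 4.12 between JHT and WT hippocampus (limma adjusted p 0.563).

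Cox6b2 and Cox7a1 were also highest on these arrays. Cox6b2 measured 10.20, 10.29, 9.64 and 8.78 (mice 4, 7, 13 and 14) against 7.85–8.80 on the others, and Cox7a1 11.01, 10.91, 10.92 and 10.43 against 9.92–10.35. All 4 arrays lay above the others in Cox7a1 and 3 of 4 in Cox6b2. The part of choroid plexus RNA in these values was not tested. Without the 4 arrays, 47 respiratory chain genes were called between the tissues, 46 of them lower, against 47.3% of all genes called in either direction.

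**Figure D4:**
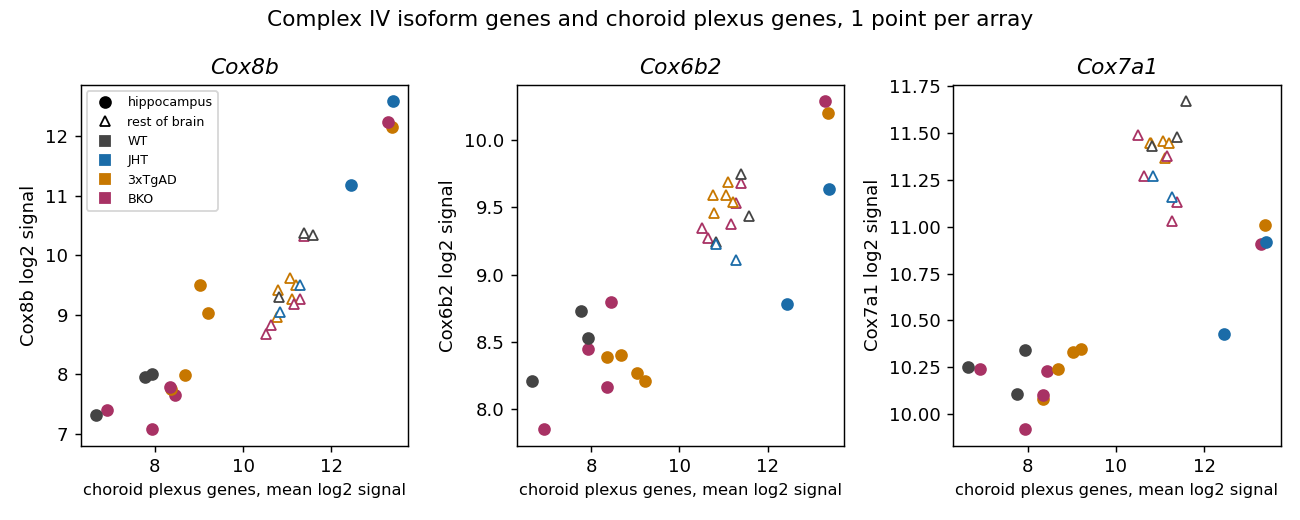
Log2 signal of the complex IV isoforms Cox8b, Cox6b2 and Cox7a1 on each array (vertical axis) against the mean log2 signal of 8 choroid plexus markers (horizontal axis), with filled points for hippocampus, open triangles for the rest of the brain and colours for genotypes. The 4 hippocampal arrays with markers at 12.44 or above hold the highest hippocampal Cox8b (11.18–12.59).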

How the data were processed

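The authors scanned 1-colour Agilent arrays with Feature Extraction 12.0.3.1 and deposited, for each array, the processed intensity of each spot (background subtracted, trends across the array removed, no normalization between arrays) and the median pixel intensity. They also deposited a table of scores, which a comparison with the scanner files showed to be Z scores within each array of the log10 processed intensity (largest median absolute difference 0.00254). Of 62976 spots, 3671 control spots and spots marked as outliers were left out, which left 55681 probes. Intensities were log2-transformed and quantile-normalized, and each gene was read from its brightest probe by mean level, a step taken from the study's methods. Probes were named through array accessions and a RefSeq table (28331 probes with a symbol). The 75th percentile of intensities was 454–824 on hippocampal and 841–1636 on brain arrays, 52.6–62.5% of probes were well above background and none was saturated. The number of mice limits the precision.

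Comparisons used R 4.3.3 with limma 3.58.1, on the 6 groups of genotype and sex of a tissue or on all 30 arrays for the tissues, with Benjamini-Hochberg adjustment over all 36717 genes and transcripts and a threshold of 0.05. Values after ± are limma's standard errors. The genes, lists and tests were chosen with earlier results of these data known. Genes were named where past the threshold (up to 6 in each direction by size), as complex IV or Ndufa4 paralogues, as complex II or core subunits of complexes I and III, as the largest and smallest tissue difference of a complex, or as not well above background. 1 gene and 1 allele are not reported here. Ndufs1 in single mice, the arrays that stood apart and genes that separated groups were picked after their values were seen.

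Equal mouse numbers in the labels were taken to mean the same mouse. Over 19491 genes, deviations from the group means correlated between both arrays of a mouse with a median of 0.105 (-0.178 to 0.24) (different mice of a group, -0.0446). The alternatives were other scalings, normexp (offset 50, on median pixel intensities), the mean of the probes, a filter on dim probes, slide or mouse as a block, other sets of arrays, a threshold of 0.1, the methods' t-test and leaving out each mouse. The comparison of mice with and without the transgenes, and the fits without arrays that stood apart, were added after the data were seen. On simulated data in which 200 of the 36717 genes were moved by 1 log2 unit, the fit called 161 of them between the tissues and 61 between BKO and 3xTgAD females in the hippocampus, and wrongly called 14 and 1 others. Moved by 0.5 log2 units, 96 were called between the tissues and 0 between BKO and 3xTgAD females in either tissue. The simulated data held no slide or mouse effect and few moved genes, whereas 51.1% of all genes were called between the tissues in the real data. The simulated counts therefore do not show how many true or false calls the tissue comparison holds.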

Additional observations from a re-analysis of the deposited data

How the results depend on the processing

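Directions in single genes between the tissues depended on the scaling. Of the 51 respiratory chain genes called between hippocampus and brain, 23 kept their sign in all settings. With 75th percentile scaling the difference turned to 0.02 for Ndufb7, 0.03 for Cox7a2l and Ndufv1, 0.04 for Cox4i1, Ndufb4 and Ndufb11, 0.06 for Ndufa12, 0.07 for Uqcr10, 0.10 for Ndufs5, 0.15 for Cox5b, 0.17 for Ndufb9, 0.30 for Ndufa13 and 0.47 for Cox6a1. In the deposited scores it turned to 0.00 for Cox7b, 0.01 for Ndufb3, Ndufs3, Uqcrb, Uqcrfs1 and Uqcrh, 0.02 for Ndufc2, Ndufs7 and Ndufv3, 0.03 for Ndufa2, 0.04 for Cox7a2l, Ndufb7 and Ndufb10, 0.05 for Ndufa12, Ndufb4, Ndufb11, Ndufv1 and Uqcr10, 0.06 for Cox4i1 and Ndufs5, 0.08 for Cox5b, 0.09 for Ndufb9, 0.13 for Ndufa13 and 0.18 for Cox6a1, and the median of all 76 genes to 0.012. With the slide as a block it turned to 0.01 for Uqcrfs1, 0.02 for Cox6a1, Cox7a2l and Ndufv3, 0.03 for Uqcrc2, 0.05 for Ndufaf6, Ndufb9 and Uqcr10, 0.06 for Ndufa12, Ndufb10 and Ndufs3, 0.11 for Ndufs5, 0.20 for Ndufb11, 0.27 for Ndufa13 and 0.44 for Ndufaf7. The hippocampal array of BKO male 0 stood apart for Ndufaf7. Ndufa5 turned to -0.72 with normalization within each tissue, and Uqcr10 to 0.01 with the mean of the probes. Between BKO and 3xTgAD hippocampus, the median of the 76 genes turned to 0.002 with both sexes in 1 fit (females) and to -0.02 in the deposited scores (males). The causes were not tested.

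Counts of called genes moved as follows. Between the tissues 51 became 14 with the slide as a block and 48 with the mouse as a replicate block, which pairs both arrays of a mouse and left the contrasts of changes between tissues at 0. It was 46 to 57 when 1 mouse was left out. The slide block gave 12 in the hippocampus and 1 in the brain for 3xTgAD against WT, 17 and 0 for BKO against 3xTgAD males, 10 and 0 for BKO against JHT, 10 and 1 for mice with against without the transgenes, 12 for the hippocampal BKO change between the sexes and 8 for the 3xTgAD change between tissues (5.68% of all genes). For BKO against 3xTgAD, the deposited scores gave 0 in each sex and tissue, 75th percentile scaling 0 except in male brain, where 1 was called, the mean of the probes 0 in both brain comparisons, and both sexes in 1 fit 2 in the brain. Normexp gave 1 (3xTgAD against WT, brain), 0 (the same in the hippocampus, and BKO against 3xTgAD females in the hippocampus) and 2 (females in the brain, males in each tissue). The filter on dim probes gave 1 for 3xTgAD against WT in the brain, 2 in the brain of each sex and 4 in male hippocampus for BKO against 3xTgAD, and 1 for the hippocampal difference between the sexes. A threshold of 0.1 gave 1, 2, 2, 4 and 2 for these. One fit of all 30 arrays gave 7 in male hippocampus, 2 for BKO against JHT hippocampus and 4 for the hippocampal difference between the sexes. With only the groups compared, 0 were called for 3xTgAD against WT in the hippocampus and for every comparison of BKO with 3xTgAD or JHT. The methods' t-test gave, unadjusted and for hippocampus and brain, 7 and 5 (3xTgAD against WT), 8 and 4 (BKO against 3xTgAD, females), 7 and 9 (males), 14 and 8 (BKO against JHT), 2 and 0 (JHT against WT) and 9 and 13 (with against without the transgenes). Adjusted, it gave 1 and 2 for the last of these and 0 for the others. By limma, 6.31% to 18.2% of all genes were at an unadjusted p under 0.05 in these comparisons. No share of all genes is given for normexp, the filter on dim probes, the threshold of 0.1 and the t-test. Where a share is given neither here nor above, a count does not show whether the 76 genes moved more than other genes.

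Leaving out 1 mouse gave 0 to 1 in the hippocampus for 3xTgAD against WT, 0 to 1 (hippocampus) and 0 to 0 (brain) for BKO against 3xTgAD females, 0 to 6 and 0 to 1 for males, 1 to 1 and 1 to 2 for BKO against JHT, 0 to 1 for JHT against WT in the brain, 0 to 1 for the hippocampal difference between the sexes, and 2 to 2 and 2 to 3 for mice with against without the transgenes. No share of all genes is given for the fits that left out 1 mouse. Their counts therefore do not show whether the respiratory chain genes moved more than other genes. Signal over background limits Cox8c, which was at background on 29 of 30 arrays.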

Other observations

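Cytochrome c and the factors that build the other complexes lie outside the gene names used in the report and were measured on the same arrays. Cycs, the somatic cytochrome c, was lower in the hippocampus than in the rest of the brain by 0.29 ± 0.03 log2 (-0.29, limma adjusted p 2.14e-07), and Cyc1, the cytochrome c1 subunit of complex III, by 0.50 ± 0.06 (-0.50, adjusted p 8.75e-07). Of 38 assembly factors of complexes I to IV with other symbols, 22 were called lower and 5 higher by limma (median -0.21). Of 16 glycolytic genes, 9 were called lower and 2 higher (median -0.09). In the same fit 26% of all genes were called lower and 25.1% higher, and 36.4% of the genes well above background on all arrays were called lower. These counts are for quantile normalization over all arrays. In the respiratory chain genes the sign of many such differences was not the same under other scalings.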
